A study of Homo sapiens with 24 samples.

Results

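The response of airway epithelial cells to TNFα and IFNγ was measured in RNA that came down with an IgG1 isotype control antibody 18 h after the cytokines were added. The comparison rests on 6 of the 24 arrays of the series, 3 from untreated and 3 from stimulated cells, chosen by their labels for antibody, agent and time. The cells were BEAS-2B, an immortalised line derived from human bronchial epithelium. They were given PBS (untreated) or TNFα and IFNγ together, each at 50 ng/ml, for 18 h. The lysates were then incubated with IgG1 on protein A beads, and the recovered RNA was read as radiolabelled cDNA on a membrane that carries probes for inflammatory and autoimmune genes. Elsewhere in the series the cells were stimulated for 3 h, or the lysate was precipitated with an antibody to HuR, an RNA-binding protein. Both groups at 18 h share the cell line, the isotype antibody and the time, and differ by the cytokines. Each group holds the replicates numbered 1, 3 and 4, which are called set 1, set 3 and set 4 here. The study describes them as biological replicates.

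TNFα binds TNF receptors and frees the Rel transcription factors of NF-κB from their IκB inhibitors. IFNγ acts through its receptor, the JAK1 and JAK2 kinases and STAT dimers that bind the gamma-activated sequence (GAS) of promoters, and through IRF1, which the pathway induces. In airway epithelium the cytokines together induce chemokines that draw T cells and monocytes, adhesion molecules and complement. An isotype control antibody has no intended target in the lysate, so RNA in its precipitate is usually read as the background against which a specific antibody is compared. A higher level of a transcript there can mean more of it in the lysate or more of it carried down, and in a bulk sample more responding cells and more RNA per cell cannot be told apart either.

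A level below is the log2 of the deposited intensity minus the median log2 intensity of the same array over the 355 probes with a value, so 0 is the middle probe of the array. A change is the stimulated minus the untreated level, and 1 on this scale is a doubling relative to the middle probe. The middle probe lay close to the lower end of every array. In untreated cells the median intensities of sets 1, 3 and 4 were 11831, 5655 and 15945 units, and the lowest were 8218, 3472 and 8043. In stimulated cells the medians were 3021, 2303 and 12399 units, and the lowest were 2076, 1145 and 5857. Between 40.8% and 82.3% of the probes of an array lay within 0.5 log2 units of its median, and whether levels near 0 stand above background cannot be told from the table. The stimulated array was the dimmer one in every set, and its median differed from the untreated one by -1.97 log2 units (set 1), -1.30 (set 3) and -0.36 (set 4). Centring removes that difference, and a shift shared by most transcripts cannot be seen after it.

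The sets did not carry the response alike, and set 1 stood apart before any test. Across the 355 probes the change in set 3 correlated with that in set 4 (Pearson's r = 0.80), whereas set 1 correlated at 0.056 with set 3 and 0.119 with set 4. These correlations are across probes of single arrays, which share the membrane design and are not independent. In set 3 the level rose by over 1 log2 unit for 71 probes (20% of 355) and dropped by as much for 2 (0.563%). In set 4 the same counts were 24 (6.76%) and 0. In set 1 they were 20 (5.63%) and 27 (7.61%). Over the 3 sets together the mean change was above 0 for 181 probes (51%), and its median was 0.01. The change was above 0 in every set for 64 probes (18%) and below 0 in every set for 38 (10.7%).

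**Figure D1:**
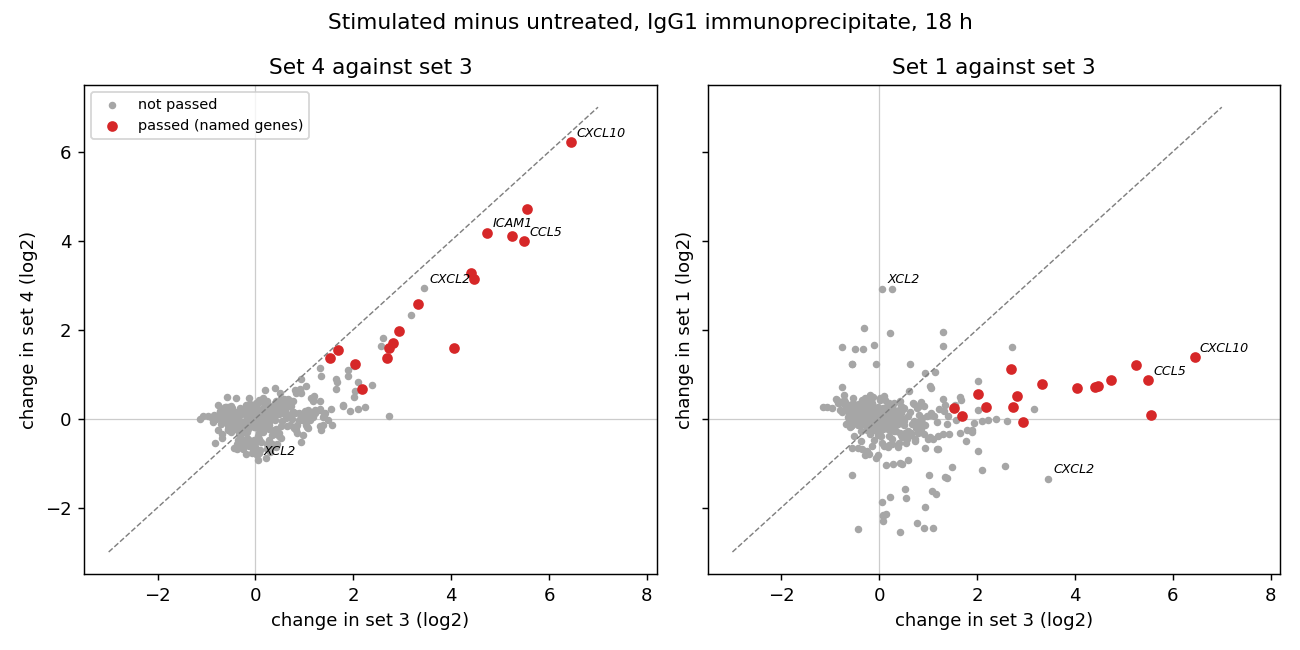
Change of each probe (stimulated minus untreated level, log2) in set 4 (left) and set 1 (right) against its change in set 3, with the named genes that passed the test in red, the others in grey and a dashed line of equal change. The red points rise together in sets 3 and 4 but lie below the line, with the larger change in set 3, and in set 1 they lie between -0.07 and 1.38, where CXCL10 changed by 1.38 against 6.44 in set 3.

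Stimulation raised 18 of the 355 transcripts in the IgG1 precipitate (5.07%) and lowered 0, at an adjusted p under 0.05 in limma. The fit had the set as a block and took its spread from all 24 arrays. The changes of the 18 ran from 1.03 to 4.68, or from 2.05-fold to 25.6-fold. They included the T-cell chemokines CXCL10, CXCL11 and CCL5, the monocyte chemokines CCL2 and CCL8, the adhesion molecule ICAM1, and NF-κB and interferon signalling genes. The others were the cytokine gene IL6, IL18BP for an interleukin-binding protein, IL15RA for a receptor chain, the complement genes CFB and C3, and the cell cycle inhibitor CDKN1A. For 11 of the 18 the centred levels of all stimulated arrays lay above those of all untreated arrays, which held for 19 of the 355 probes (5.35%). The reverse pattern, all stimulated below all untreated, was shown by 6 probes (1.69%), of which 0 passed the test. At an unadjusted p under 0.05 limma gave 42 probes (11.8%), 37 of them higher (10.4%).

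Each of the 18 changed least in set 1 and most in set 3. The median of their changes was 3.54 in set 3, against 2.27 in set 4 and 0.70 in set 1. In set 1 they ranged from -0.07 to 1.38, and 17 of the 18 were above 0 in all 3 sets. Before centring, the set 1 intensity of every 1 of the 18 was lower in stimulated cells. It was 9566 untreated and 6360 stimulated for CXCL10, 10796 and 5010 for ICAM1, and 10918 and 2955 for CXCL11. The positive changes in set 1 are thus relative to an array median that differed by -1.97 log2 units. The spread between the stimulated arrays was wider than between the untreated arrays for all 18, with SDs of 0.65 to 2.95 against 0.08 to 0.85. The count depended on the sets. It was 30 without set 1, 0 without set 3 and 1 without set 4, and the 1 was CD3G, which was not among the 18. Added without set 1 were BCL3, CCL13, CSF1, CXCL1, CXCL2, CXCL8, IL15, IL1B, JUNB, NFKBIE, SAA1 and TNFAIP3. Leaving out single arrays gave 24 without the stimulated array of set 1, 3 and 4 without the untreated or the stimulated array of set 3, and 8 and 13 without those of set 4. Without the set as a block 5 genes passed, and a fit to the 6 arrays alone gave 0 with the block and 0 without it, with 28 and 16 at an unadjusted p under 0.05.

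Chemokines that draw activated T cells were among the transcripts that changed most. CXCL10, a CXCR3 ligand named for its induction by interferon, lay at -0.31, -0.03 and -0.31 in untreated sets 1, 3 and 4 and at 1.07, 6.41 and 5.91 in the stimulated sets. All stimulated arrays were above all untreated arrays, with set 1 far below the other two. The mean change over the 3 sets, 4.68 ± 0.85, was the largest of the 355 (25.6-fold, limma adjusted p = 0.0041). Here and below, ± gives the SE of the limma fit to all 24 arrays and not the spread between the 3 sets. By set CXCL10 changed by 1.38, 6.44 and 6.22. CXCL11, another CXCR3 ligand, lay at -0.12, -0.19 and -0.51 untreated and at -0.03, 5.37 and 4.21 stimulated. Its stimulated level in set 1 was only just above the untreated levels, whereas sets 3 and 4 rose by 5.55 and 4.71. The mean change was 3.45 ± 0.89 (10.9-fold, limma adjusted p = 0.030). CCL5, a chemokine that draws T cells, lay at 0.11, 0.02 and -0.33 untreated and at 0.97, 5.51 and 3.66 stimulated. The groups did not overlap, and the change was 3.44 ± 0.67 (10.9-fold, limma adjusted p = 0.0047). CXCL9, another CXCR3 ligand, was not analysed here.

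Of the CC chemokines that draw monocytes, CCL2 and CCL8 rose. CCL2 lay at 0.59, 0.73 and 0.73 in untreated cells and at 1.79, 5.97 and 4.84 in stimulated cells. Its untreated levels spanned little (SD 0.08, n = 3), and every stimulated array was higher. The change was 3.52 ± 0.89 (11.4-fold, limma adjusted p = 0.030). CCL8 lay at -0.24, 0.42 and 0.37 untreated and at 0.47, 4.83 and 3.65 stimulated. In set 1 the stimulated level was just above the highest untreated level, and the change over the sets was 2.80 ± 0.74 (6.95-fold, limma adjusted p = 0.031). CCL13, which acts on the same receptors, lay at -0.29, -0.13 and -0.23 untreated and at 0.20, 1.52 and 0.65 stimulated, without overlap, but its change of 1.00 ± 0.57 did not pass (limma adjusted p = 0.63). CCL7 changed by 0.26 and CCL20, a CCR6 ligand, by 0.16, and neither passed. In all, 3 of the 20 measured CC chemokines rose and 0 fell, against 5.07% of all probes that rose, with a list median of -0.01 against 0.01 over all probes.

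Of the neutrophil chemokines of the CXC family, which include classical NF-κB targets, CXCL1, CXCL2 and CXCL8 were higher in stimulated sets 3 and 4 but did not pass over all 3 sets. CXCL3, CXCL5 and CXCL6 had mean changes of -0.38, -0.10 and -0.16 and did not pass either. CXCL1 lay at -0.02, 0.22 and 0.69 untreated and at 0.20, 3.40 and 3.01 stimulated, a change of 1.91 ± 0.67 (limma adjusted p = 0.16). CXCL2 lay at 2.72, 0.17 and 0.07 untreated and at 1.36, 3.61 and 3.00 stimulated, so that it was lower after stimulation in set 1 and higher in the others (1.68 ± 0.78, limma adjusted p = 0.42). Without set 1 the changes were 2.75 ± 0.53 for CXCL1 (limma adjusted p = 0.0047) and 3.19 ± 0.59 for CXCL2 (0.0038). CXCL8, which encodes interleukin 8, lay at -0.41, 0.09 and -0.48 untreated and at 0.03, 1.41 and 0.65 stimulated. The stimulated arrays of CXCL8 overlapped the untreated ones, and its change of 0.96 ± 0.76 did not pass (limma adjusted p = 0.80). Without set 1 the change of CXCL8 was 1.22 ± 0.34 and passed (limma adjusted p = 0.046). XCL1, a lymphocyte chemokine, had the lowest mean change of the 355 probes, -0.996 ± 0.34 (limma adjusted p = 0.15), made up of -2.30, 0.08 and -0.76 in sets 1, 3 and 4. Of 13 measured CXC, CX3C and XC chemokines, 2 rose and 0 fell (list median -0.01), and 5 rose without set 1. Over all 355 probes 5.07% rose, and 30 probes rose without set 1.

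ICAM1, the endothelial and epithelial ligand that leukocyte integrins bind, lay at -0.13, 0.15 and 0.74 untreated and at 0.73, 4.88 and 4.92 stimulated. The stimulated array of set 1 fell just under the untreated array of set 4, so the groups overlapped, while the centred level was higher within each set. The change was 3.26 ± 0.64 (9.56-fold, limma adjusted p = 0.0047). Of 7 measured adhesion genes 1 passed, ICAM1 itself, against 5.07% of all probes, and the list median was -0.27. VCAM1, which binds the integrin of monocytes and lymphocytes and is also an NF-κB target, changed by -0.42, 1.03 and -0.04 in sets 1, 3 and 4.

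Signalling genes of the interferon pathway rose as well. IRF1, a transcription factor that carries the IFNγ signal to secondary target genes, lay at -0.15, 0.05 and 0.19 untreated and at 0.64, 3.37 and 2.76 stimulated. The groups did not overlap, and its change of 2.23 ± 0.38 (4.68-fold) had the smallest p of the named genes (limma adjusted p = 0.0041). JAK2, a kinase bound to the IFNγ receptor, lay at -0.36, -0.41 and -0.62 untreated and at -0.11, 1.77 and 0.05 stimulated, without overlap. Its stimulated levels stayed near the array median in sets 1 and 4, and the change of 1.03 ± 0.26 (2.05-fold, limma adjusted p = 0.030) came mostly from set 3, where it was 2.19. SOCS1, an inhibitor of the JAK kinases that IFNγ induces, changed by 1.94, 1.31 and -0.17 and did not pass (1.03 ± 0.43, limma adjusted p = 0.28). SOCS3 changed by -0.04, 2.23 and 0.26, and CIITA, the regulator of MHC class II genes, by a mean of -0.13. Of the 11 measured genes of interferon receptors, JAK-STAT and SOCS, 2 rose and 0 fell (list median 0.35). Of 18 measured genes known to be inducible by IFNγ, 13 rose and 0 fell, with a list median of 1.64. The 5 that did not pass were IL15, SOCS1, SOCS3, NOS2 and CIITA. The list median reached 2.88 in set 3 and 1.83 in set 4, against 0.44 in set 1, and 14 of the 18 rose without set 1 against 5 without the block. Over all 355 probes 18 rose (5.07%, median change 0.01), against 30 without set 1 and 5 without the block. The lists were chosen with earlier results of these data known, so their counts are a description and not independent support.

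NF-κB subunits and their inhibitors rose in part. RELA, which encodes the transactivating subunit p65, lay at 0.40, 0.88 and 1.19 untreated and reached 1.08, 4.93 and 2.78 after stimulation. The groups overlapped through set 1, and the change was 2.11 ± 0.48 (4.31-fold, limma adjusted p = 0.016). NFKBIA encodes IκBα, the inhibitor that NF-κB itself induces, and lay at -0.23, 0.80 and 1.46 untreated and at 0.50, 5.26 and 4.60 stimulated. Its untreated level differed more between sets than that of the other 17 (SD 0.85, n = 3), so that the stimulated array of set 1 lay below the untreated arrays of sets 3 and 4. Within sets it rose by 0.73, 4.46 and 3.14 (mean 2.78 ± 0.55, 6.86-fold, limma adjusted p = 0.0047), and without the block it did not pass (limma adjusted p = 0.46). NFKB2, the precursor of p52, changed by 0.24, 1.52 and 1.35 (1.04 ± 0.26, 2.05-fold, limma adjusted p = 0.030). BCL3 (0.95 ± 0.30), RELB (0.68 ± 0.22), NFKB1 (0.56) and NFKBIB (0.52) had positive mean changes and did not pass, with limma adjusted p of 0.10 for BCL3 and 0.12 for RELB. TNFAIP3, which encodes the feedback inhibitor A20, lay at 1.44, -0.38 and -0.34 untreated and at 0.36, 2.19 and 1.29 stimulated. In set 1 it changed opposite to the other sets, and over all 3 it did not pass (1.04 ± 0.43, limma adjusted p = 0.28). Without set 1 TNFAIP3 changed by 2.10 ± 0.34 and passed (limma adjusted p = 0.0017). Of 19 measured Rel subunits, inhibitors and IKK kinases, 3 rose and 0 fell (list median 0.36), and of 42 genes known to be inducible by NF-κB, 10 rose and 0 fell (0.57). Without the block these counts were 0 and 3, and without set 1 they were 6 and 20. Over all 355 probes 18 rose (5.07%), against 5 without the block and 30 without set 1. The NF-κB list shares genes such as CXCL10, CCL5 and ICAM1 with the IFNγ list, so the lists are not independent of each other.

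**Figure D2:**
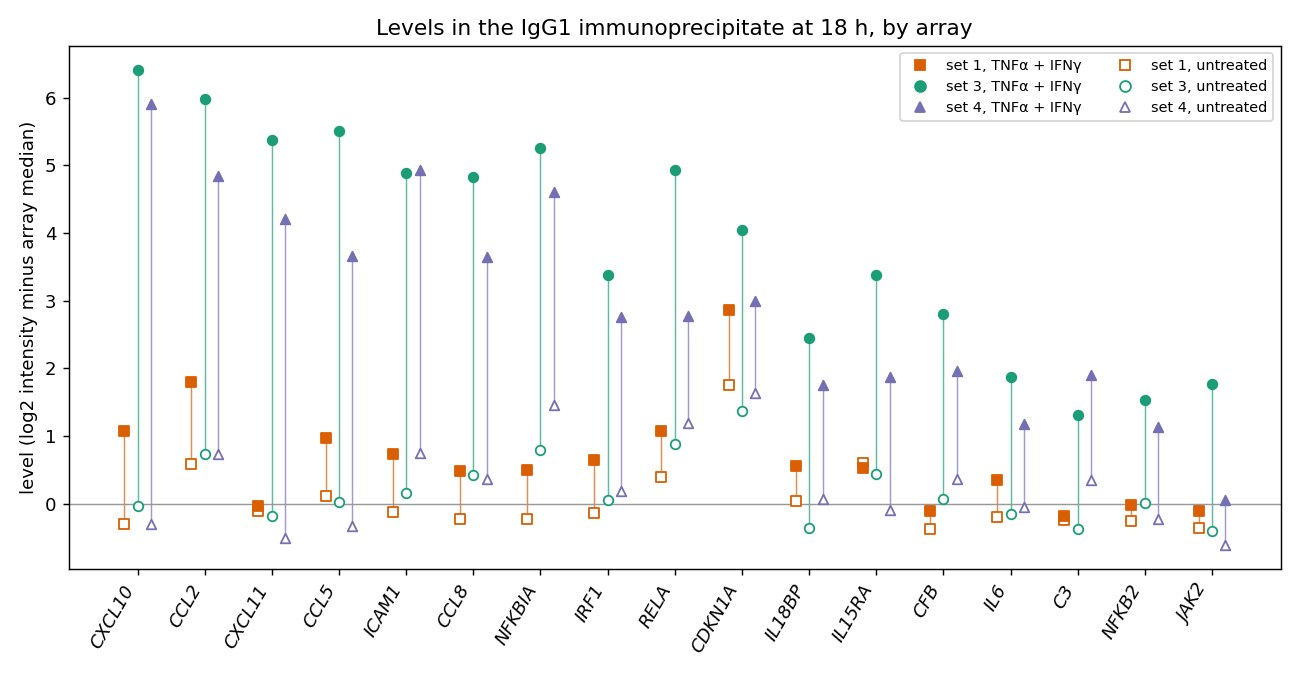
Levels (log2 intensity minus array median) of the 17 named genes that passed, on the 6 arrays, with open symbols for untreated cells, filled symbols for stimulated cells, 1 symbol shape per set and a line joining the arrays of a set. Sets 3 and 4 rise by several log2 units for most genes, while the filled squares of set 1 stay at or below 2.86.

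Among cytokines and their binding proteins, IL6 lay at -0.20, -0.16 and -0.05 in untreated cells and at 0.35, 1.87 and 1.18 in stimulated cells. The 3 stimulated arrays were all above the untreated ones, and IL6, an acute-phase cytokine, rose by 1.27 ± 0.33 (2.41-fold, limma adjusted p = 0.031). IL18BP, which encodes a secreted protein that neutralises interleukin 18, lay at 0.04, -0.37 and 0.06 untreated and at 0.55, 2.45 and 1.75 stimulated. It rose without overlap by 1.68 ± 0.33 (3.19-fold, limma adjusted p = 0.0047). IL18 itself had lower levels after stimulation, from 0.47, 0.66 and 0.81 to 0.19, 0.29 and 0.19, without overlap, but its change of -0.42 ± 0.27 did not pass (limma adjusted p = 0.71). IL15RA, the chain that presents interleukin 15, lay at 0.61, 0.44 and -0.10 untreated and at 0.53, 3.38 and 1.87 stimulated. In set 1 it changed by -0.07, the only negative value among the 18, and its mean change was 1.61 ± 0.43 (3.05-fold, limma adjusted p = 0.033). IL15 changed by 0.62 ± 0.25 and did not pass (limma adjusted p = 0.28). IL1B, an early inflammatory cytokine, changed by 1.03, 0.93 and 0.88, nearly alike in the 3 sets, and did not pass (0.95 ± 0.49, limma adjusted p = 0.51). Of 24 measured interleukin genes 2 rose, and of 20 interleukin receptor genes 1 rose, with list medians of -0.06 and 0.05. These shares are near the 5.07% of all probes that rose.

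Of the 4 measured genes of complement and the acute phase 2 rose, CFB and C3, against 5.07% of all probes, with a list median of 1.28. CFB, the factor B protease precursor of the alternative pathway, lay at -0.38, 0.07 and 0.37 untreated and at -0.11, 2.80 and 1.96 stimulated. C3, the central component, lay at -0.25, -0.38 and 0.35 untreated and at -0.19, 1.30 and 1.90 stimulated. Set 1 hardly moved for either, and the changes were 1.53 ± 0.35 for CFB (2.89-fold, limma adjusted p = 0.016) and 1.10 ± 0.30 for C3 (2.14-fold, limma adjusted p = 0.036), the highest adjusted p among the 18. SAA1, an acute-phase apolipoprotein, was the gene just outside the threshold: it changed by -0.05, 2.61 and 1.81 (1.45 ± 0.44, limma adjusted p = 0.075). Without set 1 SAA1 changed by 2.21 ± 0.39 and passed (limma adjusted p = 0.0028). CDKN1A, which encodes the cyclin-dependent kinase inhibitor p21, was above the array median before stimulation. It lay at 1.75, 1.36 and 1.64 untreated and at 2.86, 4.05 and 2.99 stimulated. It changed by 1.11, 2.69 and 1.36, the narrowest stimulated spread of the 18 (SD 0.65, n = 3), and by 1.72 ± 0.45 on average (3.29-fold, limma adjusted p = 0.031).

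Several groups of the array had 0 members that passed. Among 17 TNF receptors and adaptors the list median was -0.13, and TNFRSF1A, the main TNF receptor of epithelium, changed by 0.46 ± 0.35. Among 7 TNF superfamily ligands the median was -0.29. TNF itself lay at 1.91, -0.27 and 0.16 untreated and at 0.04, -0.23 and -0.07 stimulated, so that its change of -0.68 ± 0.32 came from set 1 (limma adjusted p = 0.42). Among 12 Toll-like receptors and adaptors the median was -0.17, and TLR9, a receptor for CpG DNA, changed by -0.50, -0.37 and -0.69 (limma adjusted p = 0.15, and 0.016 with array weights). Among 16 chemokine receptors it was 0.09, with a range of -0.35 to 0.84. Among 30 AP-1, CREB and other transcription factors it was 0.17. There FOSL1 (1.11 ± 0.41), CEBPB (1.04 ± 0.42) and JUNB (0.82 ± 0.37) had positive changes that did not pass, with limma adjusted p of 0.19, 0.28 and 0.38. Without set 1 JUNB changed by 1.59 ± 0.30 and passed (limma adjusted p = 0.0038). In these lists 0, 2, 2, 0 and 5 members reached an unadjusted p under 0.05, which 11.8% of all probes did, and these counts are not read as a result.

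**Figure D3:**
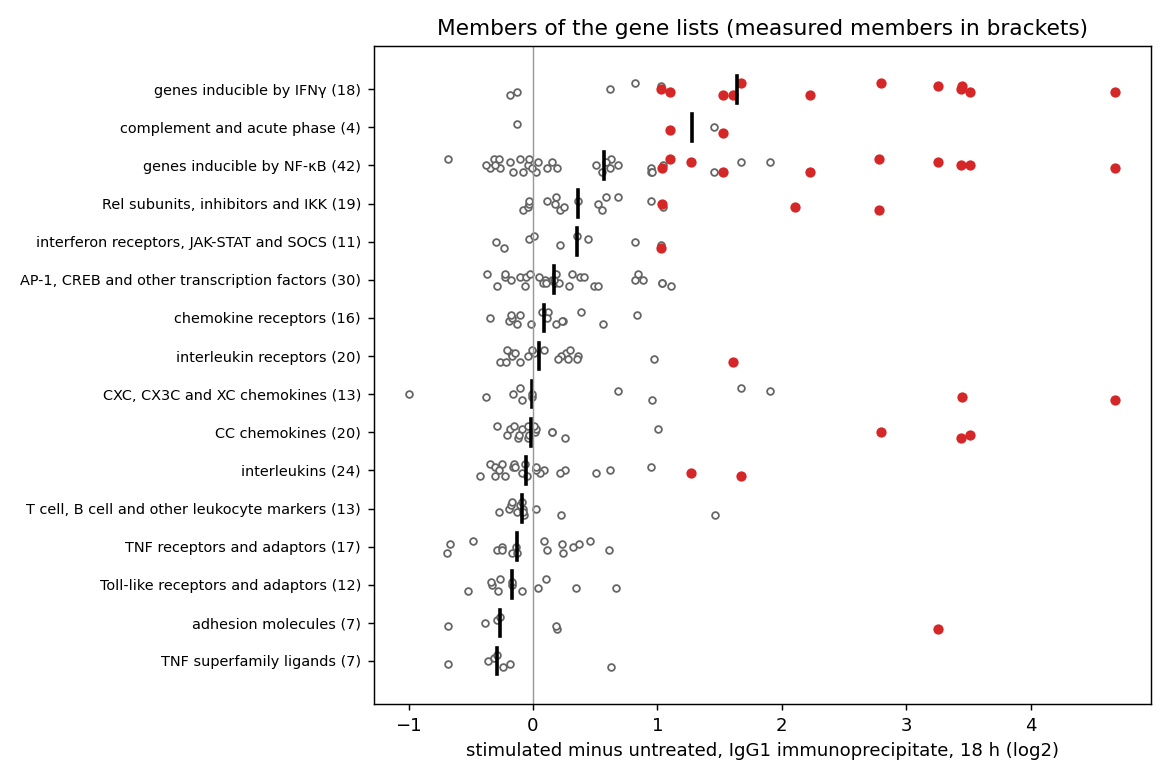
Change (stimulated minus untreated, log2, mean of 3 sets) of the named measured members of each gene list, 1 point per gene, filled red where the gene passed and open where it did not, with a black bar at the list median. The genes inducible by IFNγ have their median at 1.64, the NF-κB list at 0.57, and most other lists lie around 0.

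Of the epithelial markers sought 0 had a value, so the epithelial label of the cells could not be checked. Most leukocyte markers lay near the middle of the arrays. Of 13 markers of T cells, B cells and other leukocytes 0 passed (median change -0.09), and at most 2 of them were above 1 log2 unit on any of the 6 arrays. Their summed linear levels, relative to the array median, were 13.9, 12.8 and 11.3 in untreated sets 1, 3 and 4 and 21.7, 15.9 and 11.5 in stimulated sets. The marker that moved was CD3G, a chain of the T-cell receptor complex, at 1.501, 0.09 and -0.61 untreated and 3.11, 2.81 and -0.54 stimulated. It changed by 1.61 and 2.72 in sets 1 and 3 and by 0.07 in set 4 (1.47 ± 0.47, limma adjusted p = 0.10). PTPRC, the leukocyte common antigen, changed by -0.27, and CD3E and CD247, other chains of that complex, by -0.13 and -0.11. The part of leukocyte transcripts in the response was not tested.

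The RefSeq windows of the genes that rose, from 250 bases before to 50 after the annotated start (GRCh38.p14), were searched for the sites of both pathways. A window was found for 14 of the 17 named genes, 5 of which had several. There was no window for CCL2, CCL5 or C3, so these were not searched. The GAS pattern TTCNNNGAA, which reads the same on both strands, was in a window of 8 of the 14 genes (57.1%), namely CCL8, CFB, CXCL11, ICAM1, IL15RA, IL18BP, IRF1 and RELA. It was in a window of 15.4% of the 279 measured genes and of 9.38% of all genes with a window. Counted by window, it was in 30.8% of the windows of the genes that rose, 10.6% of those of measured genes and 7.66% of all 35116 windows. The interferon-stimulated response element (ISRE), on both strands, was in 4 of the 14 (28.6%), namely CFB, CXCL10, IL18BP and RELA, against 7.53% of measured genes and 4.38% of all genes (15.4% and 3.57% by window). The κB consensus, on both strands, was in 6 (42.9%), namely CXCL10, CXCL11, IL6, IRF1, NFKB2 and NFKBIA. It was in 16.5% of measured genes and 7.09% of all genes. By window its shares were 26.9%, 11.8% and 5.91%. A match is a run of letters and not evidence of binding.

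The windows of 7 genes are shown as examples of the 3 patterns in T-cell chemokine, transcription factor, adhesion, complement, inhibitor and cytokine genes. Each runs 5′ to 3′ on the strand of its gene, with the matches in capitals.
CXCL10, chr4:76023448-76023747, minus strand: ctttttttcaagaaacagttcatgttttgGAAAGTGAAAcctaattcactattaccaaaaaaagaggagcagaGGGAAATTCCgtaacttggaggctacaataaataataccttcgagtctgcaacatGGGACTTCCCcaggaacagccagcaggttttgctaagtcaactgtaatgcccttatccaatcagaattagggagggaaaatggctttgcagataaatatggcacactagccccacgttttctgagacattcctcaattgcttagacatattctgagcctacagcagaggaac
CXCL11, chr4:76036021-76036320, minus strand: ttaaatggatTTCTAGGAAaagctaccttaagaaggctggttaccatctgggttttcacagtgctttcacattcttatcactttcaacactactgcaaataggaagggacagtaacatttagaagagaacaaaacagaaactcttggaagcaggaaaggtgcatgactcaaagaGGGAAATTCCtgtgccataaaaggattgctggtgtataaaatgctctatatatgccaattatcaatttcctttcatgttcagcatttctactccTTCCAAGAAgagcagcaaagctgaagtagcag
IRF1, chr5:132490724-132491023, minus strand: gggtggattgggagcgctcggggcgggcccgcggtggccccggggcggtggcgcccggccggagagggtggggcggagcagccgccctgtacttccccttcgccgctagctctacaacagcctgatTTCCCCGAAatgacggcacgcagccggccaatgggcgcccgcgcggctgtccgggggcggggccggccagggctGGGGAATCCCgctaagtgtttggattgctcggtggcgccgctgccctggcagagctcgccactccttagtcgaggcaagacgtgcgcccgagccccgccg
ICAM1, chr19:10270870-10271169, plus strand: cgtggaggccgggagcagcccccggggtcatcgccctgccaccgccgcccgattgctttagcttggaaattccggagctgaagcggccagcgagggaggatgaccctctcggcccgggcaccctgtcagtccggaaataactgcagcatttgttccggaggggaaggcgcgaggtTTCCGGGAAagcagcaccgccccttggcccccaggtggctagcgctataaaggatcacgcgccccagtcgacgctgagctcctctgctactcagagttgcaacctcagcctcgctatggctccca
CFB, chr6:31945845-31946144, plus strand: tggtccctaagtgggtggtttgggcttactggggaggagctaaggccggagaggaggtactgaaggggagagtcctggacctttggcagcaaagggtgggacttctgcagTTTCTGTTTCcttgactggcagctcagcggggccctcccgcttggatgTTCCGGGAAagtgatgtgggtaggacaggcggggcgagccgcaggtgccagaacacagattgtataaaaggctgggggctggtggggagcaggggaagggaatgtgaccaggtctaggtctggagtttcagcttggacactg
NFKBIA, chr14:35404700-35404999, minus strand: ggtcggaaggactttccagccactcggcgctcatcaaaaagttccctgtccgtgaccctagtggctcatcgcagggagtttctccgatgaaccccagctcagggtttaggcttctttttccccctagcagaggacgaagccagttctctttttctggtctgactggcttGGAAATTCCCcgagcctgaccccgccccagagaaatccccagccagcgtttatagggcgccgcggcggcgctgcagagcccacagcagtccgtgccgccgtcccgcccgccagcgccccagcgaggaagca
IL6, chr7:22726950-22727249, plus strand: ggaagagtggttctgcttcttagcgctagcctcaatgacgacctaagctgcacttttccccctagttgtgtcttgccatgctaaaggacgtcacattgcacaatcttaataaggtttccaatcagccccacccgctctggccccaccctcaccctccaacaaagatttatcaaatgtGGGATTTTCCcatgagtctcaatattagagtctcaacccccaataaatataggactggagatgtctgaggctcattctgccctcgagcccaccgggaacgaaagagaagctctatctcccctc

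Positions are those of the first base of a match, with negative values before the start. In CXCL10 the capitals mark an interferon-stimulated response element at -221 and κB matches at -177 and -122. CXCL11 has GAS matches at -240 and 18, with a κB match at -76. IRF1 has a GAS match at -124 and a κB match at -50. The ICAM1 window has 1 GAS match, at -75. CFB has a response element at -140 and a GAS match at -92, the latter with the same letters, TTCCGGGAA, as in ICAM1. NFKBIA and IL6 each have 1 κB match, at -81 and -73. The matches of CXCL10 and CXCL11 thus include both an interferon pattern and a κB pattern, as do those of IRF1. In the windows of ICAM1 and CFB the exact matches were to interferon patterns, and in those of NFKBIA and IL6 to the κB pattern. A site that differs from a pattern by 1 base was not counted. The ICAM1 window holds such a stretch for the κB pattern, tggaaattcc, so the search does not show that it lacks a κB site.

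The same stimulation after 3 h in the IgG1 precipitate, measured on arrays of its own, raised 9 transcripts (2.54%) and lowered 0. Of these, 6 were also among the 18 at 18 h: CCL2, CCL8, ICAM1, IL6, IRF1 and NFKBIA, which is 33.3% of the 18 h list and 66.7% of the 3 h list. The test of the difference between the responses at 18 h and 3 h found 0 genes at an adjusted p under 0.05 in limma and 7 at an unadjusted p under 0.05 (1.97%). CCL5 had the smallest of these p: its change was 0.04 ± 0.67 at 3 h, with -0.02, 0.21 and -0.08 in the sets, against 3.44 at 18 h. The difference was 3.41 ± 0.94 (95% interval 1.42 to 5.39, limma adjusted p = 0.73). CXCL8 differed the other way, with a change of 4.00 ± 0.76 at 3 h (limma adjusted p = 0.0048) and 0.96 at 18 h, a difference of -3.04 ± 1.07 (interval -5.30 to -0.79, limma adjusted p = 0.998). IL18BP and JAK2 changed by 0.41 and 0.07 at 3 h and by 1.68 and 1.03 at 18 h, differences of 1.26 ± 0.47 and 0.97 ± 0.37. IRF1, ICAM1 and CCL2 changed by 2.69, 3.49 and 3.61 at 3 h, and the intervals of their differences held 0, from -1.60 to 0.68 for IRF1. Without set 1, 3 genes passed the test of the difference, CCL5 (4.67) and CXCL11 (3.25) higher at 18 h and CXCL8 (-3.77) lower.

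In the HuR precipitate at 18 h stimulation raised 13 transcripts (3.66%) and lowered 0. The list shares 10 genes with the 18 of the IgG1 precipitate, which is 55.6% of the IgG1 list and 76.9% of the HuR list, and they include CXCL10, CCL5, CCL2, CCL8, ICAM1, IRF1, NFKBIA, IL18BP and IL6. The precipitates were read on separate arrays, but those of a set may come from 1 lysate. The test of the difference between the IgG1 and HuR responses found 0 genes at an adjusted p under 0.05 in limma and 16 at an unadjusted p under 0.05 (4.51%). CXCL10 changed by 4.68 in the IgG1 and 4.26 ± 0.85 in the HuR precipitate, and CCL5 by 3.44 and 3.50 ± 0.67. The intervals of the differences were -2.11 to 2.95 for CXCL10 and -2.04 to 1.93 for CCL5, so these data do not show that the responses were alike. CCL2 changed by 3.52 and 4.59 ± 0.89, a difference of -1.08 ± 1.26, and CCL13 by 1.00 and 2.58 ± 0.57, a difference of -1.57 ± 0.80 (limma adjusted p = 0.89). CDKN1A changed by 1.72 in the IgG1 and 0.46 ± 0.45 in the HuR precipitate, and the difference of 1.26 ± 0.64 did not pass (interval -0.08 to 2.61, limma adjusted p = 0.89). CXCR2, a receptor of the neutrophil chemokines, had the smallest p of the difference, 0.73 ± 0.23, made of 0.24 in the IgG1 and -0.49 in the HuR precipitate (limma adjusted p = 0.89).

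**Figure D4:**
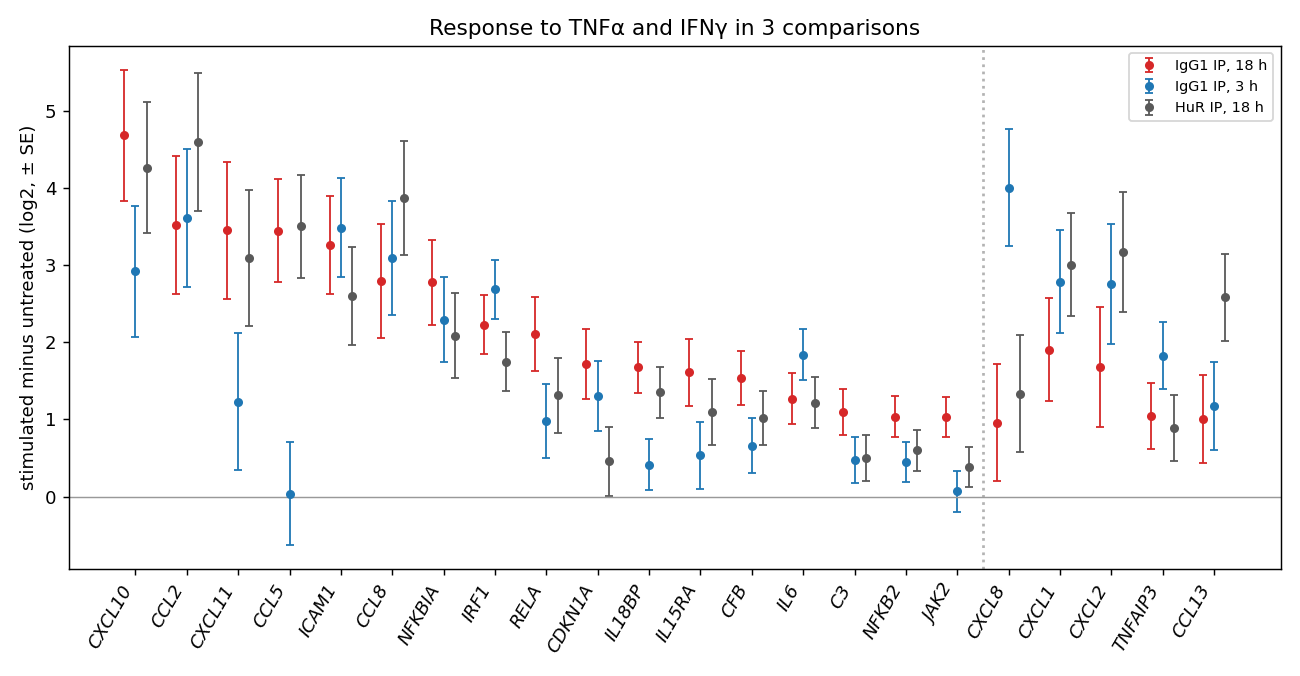
Change with stimulation (log2, mean of 3 sets) in the IgG1 precipitate at 18 h (red), the IgG1 precipitate at 3 h (blue) and the HuR precipitate at 18 h (grey). Bars are SEs of the limma fit to all 24 arrays. The 17 named genes that passed are shown and, right of the dotted line, 5 that did not. CCL5 lies at 0.04 at 3 h and at 3.44 and 3.50 in the precipitates at 18 h, and CXCL8 at 4.00 at 3 h and 0.96 at 18 h.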

How the data were processed

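The array carries 384 probes, of which 355 have values and 29 have none. The authors deposited a table of whole-number intensity values, 1 per probe and array, named there as non-normalized, and a second deposited table of the same intensity values times 1 factor per array. Image analysis and background treatment: not given in the sources used here. Probes were named by accession in the RefSeq table of GRCh38.p14 (342) or by the file's symbol (13), with 40 symbols updated. Values were log2-transformed, and the median of each array was subtracted. limma 3.58.1 in R 4.3.3 (lmFit, eBayes) was fitted to all 24 arrays with 1 coefficient for each of the 8 groups and the set as a fixed block, p-values were adjusted by Benjamini-Hochberg over the 355 probes, and the threshold was 0.05. Errors are SEs of the fit or SDs over 3 arrays, and intervals are at 95%.

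The rule of the comparison pairs arrays by set number, which the labels give. Deviations from the group means of the untreated and stimulated arrays correlated at 0.643 in set 1, 0.463 in set 3 and 0.584 in set 4 across probes. Between sets 3 and 4 they correlated at 0.456 and 0.389, so the numbers separate set 1 from the others more than set 3 from set 4. Genes named are those that passed, key genes of the pathways, the members of each list with the smallest p and genes chosen after their values were seen (XCL2, XCR1, MYC, IL17RA and NFRKB). Members, lists and tests were chosen with earlier results of these data known. 1 gene that passed is counted but not reported here. Alternatives changed the block, the arrays fitted, the normalization, the background, the table, the filter, the weights, the prior and the replicates. The number of arrays limits the precision. The fit was tested on simulated data in which a probe had the same change in every set and the same spread on all arrays. That test does not cover sets that respond unequally or groups that differ in spread.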

Additional observations from a re-analysis of the deposited data

How the results depend on the processing

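The count of calls, 18 and all higher, was 5 without the set as a block, 0 and 0 on the 6 arrays alone with and without the block, 7 without normalization and 3 in the second deposited table. Leaving out a set or an array gave 0 to 30, and without the block both tests of a difference between responses still had 0 calls (the counts at 3 h and in the HuR precipitate were not run without it). The random block, normexp, the brighter probes and the robust prior gave 18, 15, 18 and 18, and array weights 27. The split of higher and lower calls was 15 and 6 after quantile normalization (CALM2, CALM3, CSNK2B, MAPK9, PCGF2 and TGFBR1 lower), 12 and 1 with the 75th percentile (XCL1 lower), 26 and 1 with array weights (TLR9 lower), 5 and 2 without normalization and 1 and 2 in the second table (AMHR2 and XCL1 lower in both). The response at 18 h minus 3 h had 0 calls, but 1 without normalization and 1 in the second table (CXCL8), 4 with array weights and 0 to 3 with replicates left out. IgG1 minus HuR had 0 calls, but 3 without normalization and 3 in the second table (CCL13, CXCL2 and CXCL3 lower), and 0 to 1 (CD3G) with replicates left out. Without centring the median of all probes moved by -1.20, and by -1.47 in the second table, so that sign changes there are relative to that shift. The mean changes that turned negative without normalization were NFKB2 -0.17, JAK2 -0.18, C3 -0.11, BCL3 -0.26, RELB -0.53, FOSL1 -0.10, IL6ST -0.23, CEBPB -0.17, NFKB1 -0.65, IL15 -0.59, TNFAIP3 -0.17, SOCS1 -0.18, NFKBIB -0.69, IL1B -0.26, CCL13 -0.20, SOCS3 -0.39, CXCL8 -0.25, CCL7 -0.95, VCAM1 -1.02 and CCL20 -1.05. In the second table they were NFKB2 -0.44, JAK2 -0.45, IL6 -0.21, C3 -0.38, SAA1 -0.024, BCL3 -0.53, CD3G -0.012, RELB -0.80, FOSL1 -0.37, IL6ST -0.50, CEBPB -0.44, NFKB1 -0.92, IL15 -0.86, TNFAIP3 -0.44, SOCS1 -0.45, NFKBIB -0.96, IL1B -0.53, CCL13 -0.47, SOCS3 -0.66, CXCL8 -0.52, CCL7 -1.22, VCAM1 -1.29 and CCL20 -1.32. The 75th percentile gave CCL7 -0.057, VCAM1 -0.12 and CCL20 -0.16, and quantile normalization CEBPB -0.32 and NFKBIB -0.13. VCAM1 ranged from -0.23 without set 3 to 0.50 without set 1, and was -0.064 and -0.034 without the untreated or stimulated array of set 3. The causes were not tested. Dim probes lay close to the lower end of the arrays, which limits what can be read from small changes.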

Other observations

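Some of the widest changes in set 1 were on probes that did not pass the test over the sets, and these genes were picked after their values were seen. XCL2, a lymphocyte chemokine, went from 4.18 to 7.10 in set 1, and XCR1, its receptor, from 3.42 to 6.34. In sets 3 and 4 XCL2 changed by 0.06 and -0.94, and XCR1 by 0.26 and -0.67. In the same set MYC, a growth-promoting transcription factor, went from 5.48 to 7.11, IL17RA, the interleukin 17 receptor, from 4.02 to 5.64, and NFRKB from 3.56 to 5.48. In set 3 their changes were 1.31, -0.76 and 0.23, and their mean changes over all sets were 1.04, 0.20 and 0.53. The levels of untreated set 1 correlated at 0.287 and 0.386 across probes with those of sets 3 and 4, which correlated at 0.838 with each other. In stimulated cells these values were 0.192, 0.191 and 0.919.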
